A study of Mus musculus with 4 samples.

Results

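The genes of classical cadherins and nectins expressed by the epidermis, Cdh1, Cdh3, Nectin1, Nectin2, Nectin3 and Nectin4, were examined for peaks of the transcription factor p63. They were taken by name, and their peaks were those with a summit in the gene body or within 50 kb of either end, which gave 29 of 10616 peaks in the wild-type list and 26 of 14593 in the list of the p63 alphaKO genotype, each peak counted once. The peaks came from chromatin immunoprecipitation followed by sequencing (ChIP-seq) of epidermis of newborn mice (dorsal skin, postnatal day 0), with an antibody against p63 (EPR570). The wild-type group (WT) and the alphaKO group each had 1 ChIP sample and 1 input sample, 4 samples in all, and the inputs were not used here. The labels give neither the construction of the alphaKO allele nor the strain, sex or number of animals, and they name no treatment. According to its title the study concerns p63 isoforms in AEC syndrome, which dominant p63 mutations cause in skin and its appendages. The comparison concerns where p63 lay in alphaKO epidermis relative to WT.

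Classical cadherins are transmembrane proteins that bind the same cadherin on the neighbouring cell through calcium-dependent extracellular repeats and connect to actin through catenins. In epidermis, E-cadherin, the product of Cdh1, is present on keratinocytes of all living layers, whereas P-cadherin, the product of Cdh3, is found mainly in the basal layer and the hair follicle. Nectins are immunoglobulin-like adhesion proteins that bind each other across cells and recruit afadin, and they help to initiate adherens junctions. p63 is a member of the p53 family that maintains stratified epithelia, and Cdh3 is a known target of it.

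With 1 library per genotype no difference between genotypes was tested, and every contrast below describes 2 peak lists. Fold enrichment is the authors' own value for each peak, the coverage (pileup) at the summit relative to the local background of the peak caller, and ranks are by fold within a list. Folds of the lists are set side by side and do not measure a change. A peak that shared at least 1 bp with a peak of the other list is called shared, and its counterpart is its partner. Absence of a peak means that no site passed the caller's threshold there. Read totals are not in the peak lists, so depth is unknown.

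RefSeq promoter windows on GRCm38.p6, the assembly that mm10 names, were at hand for 3 of the 6 genes, Nectin2, Nectin3 and Nectin4, and not for Cdh1, Cdh3 and Nectin1. The sequences of 2 of them are shown because a WT peak lay on the window (Nectin3) or just past its end (Nectin4). Each is the run of 250 bases before the annotated start, 5′ to 3′ on the strand of the gene, with capitals for bases under a WT peak. The Nectin3 window is chr16:46496968-46497217 on the minus strand, and the Nectin4 window is chr1:171369923-171370172 on the plus strand. The start used for Nectin3 lies inside the annotated gene, which reaches upstream to 46498535.
Nectin3: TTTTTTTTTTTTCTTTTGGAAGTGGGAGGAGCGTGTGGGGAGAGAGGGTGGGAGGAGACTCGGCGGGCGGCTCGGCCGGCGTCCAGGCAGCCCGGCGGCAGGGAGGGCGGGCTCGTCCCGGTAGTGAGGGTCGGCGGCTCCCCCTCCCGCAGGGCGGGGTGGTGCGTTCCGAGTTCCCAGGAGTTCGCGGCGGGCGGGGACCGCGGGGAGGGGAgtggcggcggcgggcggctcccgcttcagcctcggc
Nectin4: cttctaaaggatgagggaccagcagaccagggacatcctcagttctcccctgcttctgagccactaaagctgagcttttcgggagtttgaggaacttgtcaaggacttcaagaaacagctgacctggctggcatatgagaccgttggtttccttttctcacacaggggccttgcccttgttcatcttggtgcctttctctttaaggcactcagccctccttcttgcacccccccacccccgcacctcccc

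In the Nectin3 window, 214 of 250 bases lay under the WT peak and 0 under an alphaKO peak. The window was rich in G and C (73.2%), against 54.4% in the Nectin4 window and 62.0% in that of Nectin2. No base of the Nectin4 or Nectin2 window lay under a peak of either list. On either strand, none of the 3 windows held an exact p53-family motif of 10 bases (found in 6.31% of 21263 windows of coding genes), a pair of CATG cores 10 bases apart (0.423%), the AP-1 motif TGANTCA (6.13%) or the AP-2 motif GCCNNNGGC (16.3%). The best match to the 20-base p53-family element, which holds that motif in tandem, agreed at 14 bases in Nectin2 and Nectin3 and at 15 in Nectin4, levels reached by 97.1% and 68.9% of windows. Peak sequences away from these windows were not analysed here.

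All 6 genes had a peak in both lists, but they fell into genes with many peaks and genes with few. Over all 21887 protein-coding genes, 47.1% had a WT summit within 50 kb, 55.1% an alphaKO summit and 41.0% a summit of each list. Nectin1 held 9 WT and 8 alphaKO peaks, Cdh3 8 and 8, Cdh1 8 and 6, Nectin4 5 and 2, Nectin2 2 and 2, and Nectin3 1 and 1. The median coding gene had 0 WT summits and 1 alphaKO summit in such a window, and the medians were 1 and 1 among genes of 15 to 120 kb, a range that holds all 6. Fewer WT summits than at Nectin1 were found at 99.7% of coding genes, and fewer than at Nectin3 at 52.9%. Nectin3 is the longest of the 6 (111 kb) and had the fewest peaks, while Nectin4 is the shortest (18.1 kb). The median coding gene is 17.2 kb long, and the part of gene length in these shares was not tested. The 6 genes were also chosen with earlier results of these data known.

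**Figure D1:**
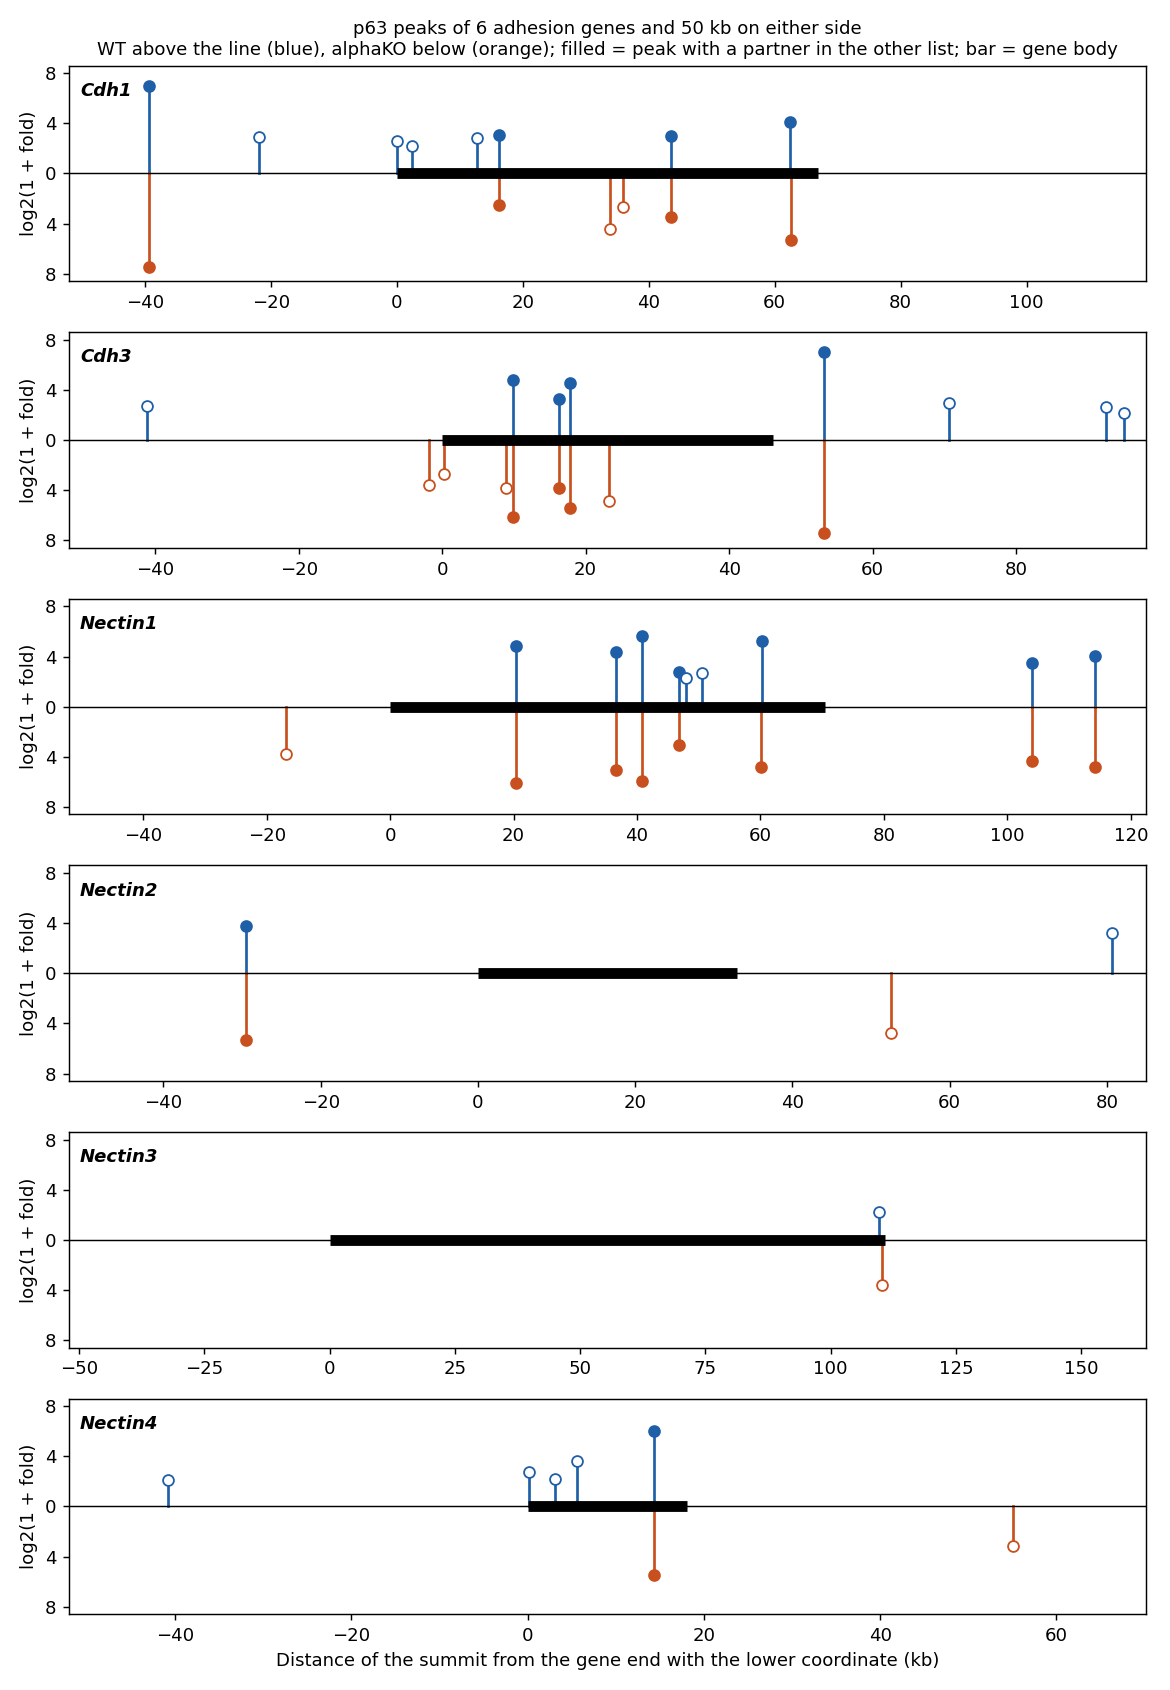
Positions and folds of all p63 peaks of the 6 genes. The x axis is the distance of the summit from the gene end with the lower coordinate (kb), the y axis log2(1 + fold), with WT peaks (blue) drawn upward and alphaKO peaks (orange) downward; filled points have a partner in the other list and the black bar is the gene body. The tallest pair lies between Cdh3 and Cdh1 and is drawn in both panels, and Nectin1 holds 7 pairs.

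The 2 cadherin genes are neighbours on chromosome 8, Cdh3 at 106510852 to 106556911 and Cdh1 at 106603350 to 106670247. Their windows overlap, and 4 WT peaks and 1 alphaKO peak belong to both. Together they held 12 WT and 13 alphaKO peaks, of which 7 in each list were shared.

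The strongest peak of all 6 genes lay between the cadherin genes, 7.15 kb outside Cdh3 and 39.3 kb outside Cdh1. In WT it spanned 106563735 to 106564343, with a pileup of 1381 and a fold of 127, rank 2 of the WT list. In alphaKO it spanned 106563759 to 106564355, with a pileup of 1146 and a fold of 173, rank 27. The summits lay 3 bp apart. The fold was the larger number in alphaKO and the pileup the larger in WT, with a local background of 9.87 in WT and 5.64 in alphaKO.

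Within Cdh3, which encodes P-cadherin, 3 shared sites lay between 9.8 and 17.9 kb from the end with the lower coordinate. The first, at summit 106520702 in WT, was the widest of the cadherin peaks (820 bp in WT, 600 bp in alphaKO) and reached 27.3 fold in WT and 68.6 in alphaKO. The second, at 106527158, had folds of 8.85 and 13.03, and the third, at 106528708 in both lists, had 22.6 and 40.9. All 3 pairs had the larger fold and the larger pileup in alphaKO, the first with pileups of 270 and 522.

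Cdh3 also held 4 alphaKO peaks without a WT partner. The strongest, at 106533874 to 106534350, lay 22.8 kb from the nearer gene end with a fold of 27.4 and a pileup of 186, and exceeded 75.2% of alphaKO peaks in fold. The next had a fold of 13.3 and lay 0.989 kb from the shared summit at 106520695. The last 2 flanked the end with the lower coordinate, with folds of 10.9 at 1.78 kb outside and 5.66 at 0.316 kb inside. WT likewise had 4 peaks without a partner in the Cdh3 window, all of them outside the gene. The peak on the side of the lower coordinate had a fold of 5.58 and lay 41.1 kb out, and the other 3, with folds from 3.48 to 6.63, lay on the side of Cdh1, whose window holds them too.

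Within Cdh1, which encodes E-cadherin, 3 shared sites were listed. The strongest lay 4.38 kb from the end with the higher coordinate, with folds of 15.9 in WT and 38.8 in alphaKO and pileups of 128 and 273. The pair at 43.5 kb from the lower end had folds of 6.76 and 10.0. The pair at 16.3 kb had the larger fold in WT, 7.52 against 4.72, with pileups of 78 and 54.

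The Cdh1 window also held peaks of a single list, which by definition do not overlap a peak of the other list. WT had 4, at the end with the lower coordinate (summit 106603341, 0.009 kb outside the gene, fold 5.17, pileup 66), at 2.51 kb (3.48) and 12.7 kb (5.99) inside, and at 21.8 kb outside (6.63). alphaKO had 2, both in the middle of the gene, at 33.8 kb (20.4) and 35.98 kb (5.34) from that end. The WT peak at the end ranked 8002 of the WT list, so it was among the weaker calls there.

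Nectin1 (chromosome 9, 43737075 to 43807461) encodes nectin-1, whose human counterpart is mutated in a cleft lip and palate with ectodermal dysplasia, and it had the most shared sites, 7. The nearest other coding gene to any of its peaks, Thy1, lay 192 kb or more away. Of its WT peaks 7 were inside the gene and 2 beyond the end with the higher coordinate. The noncoding gene Gm46108 contains 6 of the WT summits inside Nectin1, so their assignment to Nectin1 rests on the rule.

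The strongest Nectin1 site in WT was at 43777610 to 43778089, with a fold of 48.6 and a pileup of 546, rank 133. Its alphaKO partner had the same summit position, 43777849, with a fold of 59.2, a pileup of 661 and rank 853. The highest alphaKO fold was at another site, 43757176 to 43757643, with a fold of 67.8 and a pileup of 430, beside 27.8 and 229 in WT. The site at 43797246 (WT summit) had the larger fold in WT, 37.5 against 27.7, with pileups of 248 and 234. So the order of the sites by fold differed between the lists. By pileup and by −log10 q the site with summit 43777849 came first among the Nectin1 sites in both lists.

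The other 4 shared Nectin1 sites had lower WT folds than these 3. The site at 43773721 had 19.8 in WT and 31.5 in alphaKO, and that at 43783879 had 5.71 and 7.39, although the pileups of both were larger in WT (204 and 192, and 67 and 47). Beyond the gene, the site 33.6 kb out had folds of 10.4 and 19.6, and the site 43.9 kb out 15.2 and 27.7. Peaks without a partner had folds below the median of their list: 2 in WT, at 43784989 (3.83) and 43787617 (5.44), and 1 in alphaKO, 16.9 kb outside the lower end within the noncoding gene Gm30015 (12.7). That alphaKO peak was near the median of 12.8 of all alphaKO peaks without a partner.

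Nectin4 (chromosome 1, 171370173 to 171388287), which encodes a nectin enriched in epithelia and whose human counterpart is mutated in ectodermal dysplasia with syndactyly, had a single shared site. It lay inside the gene, 3.73 kb from the end with the higher coordinate, which is the far end from the annotated start. The nearest other coding gene, Arhgap30, lay 4.41 kb from the WT summit, and the start of Nectin4 14.4 kb from it. The assignment of this site to Nectin4 therefore rests on the rule. In WT the site spanned 171384019 to 171384857, with a fold of 62.2, a pileup of 449 and rank 47. In alphaKO it spanned 171384092 to 171384801, with 43.1, 251 and rank 1695. Both fold and pileup were larger in WT, unlike at most shared sites of these genes.

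The other Nectin4 peaks stood in 1 list each. WT had 3 more inside the gene, 0.181 kb (fold 5.64), 3.13 kb (3.61) and 5.59 kb (11.2) past the start whose upstream bases are printed above, and a weak one 40.7 kb outside, within Dedd (3.33). The peak next to the start began at 171370242, downstream of the printed bases. alphaKO had no peak between the start and the shared site. Its second peak, with a fold of 8.10, lay 37.0 kb beyond the far end in the noncoding gene Gm26641. That peak was closer to the coding gene Tstd1, at 4.90 kb, than to Nectin4.

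Nectin2 (chromosome 7, 19716644 to 19749573), which encodes a widely expressed nectin, had no summit in its body in either list. Its shared site lay 29.5 kb beyond its far end, with the summit at 19687173 in both lists, 2.31 kb from Apoc1, an apolipoprotein gene. The fold was 12.7 in WT (pileup 112) and 39.2 in alphaKO (pileup 237), exceeding 70.5% and 86.1% of the peaks of their lists. The other peaks were a WT peak 0.534 kb from Cblc (fold 8.21), 47.8 kb upstream of Nectin2, and an alphaKO peak 19.6 kb upstream within Bcam, which encodes a laminin-binding adhesion protein (fold 26.7). In this gene-dense stretch every Nectin2 peak was closer to another coding gene than to Nectin2.

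Nectin3 (chromosome 16, 46387665 to 46498535), which encodes the nectin that pairs with nectin-1 across cells, had 1 peak in each list, and they did not overlap. The WT summit, 46497249, lay 0.282 kb upstream of the annotated start, 32 bases beyond the 5′ end of the sequence printed above, with a fold of 3.65, a pileup of 50 and rank 9615 of 10616. The alphaKO summit, 46497890, lay 0.923 kb upstream of that start, with a fold of 11.1, a pileup of 80 and rank 10001 of 14593. Both summits nevertheless lay inside the annotated gene, because the gene reaches upstream of that start to 46498535. From that end the WT summit lay 1.29 kb and the alphaKO summit 0.645 kb inward. Both peaks had folds below the median of their list.

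Across the 6 genes, 16 of 29 WT peaks (55.2%, exact 95% interval 35.7 to 73.6) and 16 of 26 alphaKO peaks (61.5%, 40.6 to 79.8) had a partner. Over the whole lists the shares were 66.6% and 48.4%, and both lie inside these intervals, which cover counting error only. The intervals treat peaks as independent, although 7 of the 16 shared sites were at Nectin1 and 7 at the neighbouring cadherin genes. They are therefore no test of a difference from the whole lists. For Nectin1 alone the shares were 7 of 9 and 7 of 8, and for Nectin4 1 of 5 and 1 of 2. At least 1 shared site was present at 5 of the 6 genes, against 36.6% of all coding genes. All 6 are longer than the median coding gene (17.2 kb), and the part of gene length was not tested.

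**Figure D2:**
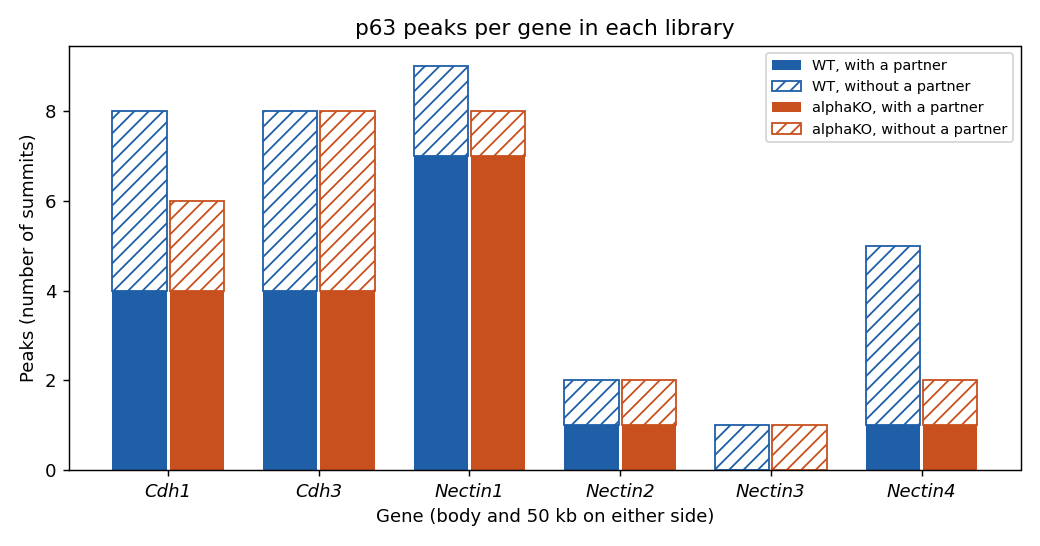
Number of p63 peaks per gene (y axis) in WT (blue) and alphaKO (orange), for the gene body and 50 kb on either side; solid bars are peaks with a partner in the other list and hatched bars peaks without. Peaks common to the Cdh1 and Cdh3 windows are counted in both, Nectin1 has 7 shared peaks in each list, and Nectin3 has none.

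At the 16 shared sites the summits lay a median of 6 bp and at most 21 bp apart, with a median of 8 bp over all 7066 shared sites. The alphaKO fold was the larger number at 13 of the 16, against 83.7% of all shared sites, so the share among these genes is near that of the whole lists. The 3 exceptions were the sites named above in Cdh1 (7.52 and 4.72), Nectin1 (37.5 and 27.7) and Nectin4 (62.2 and 43.1). The pileup was larger in alphaKO at 10 of the 16 (74.7% of all shared sites). The local background was lower in alphaKO at 13 of the 16 (73.3% of all), with medians of 8.87 in WT and 6.34 in alphaKO, and its part in the folds was not tested.

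**Figure D3:**
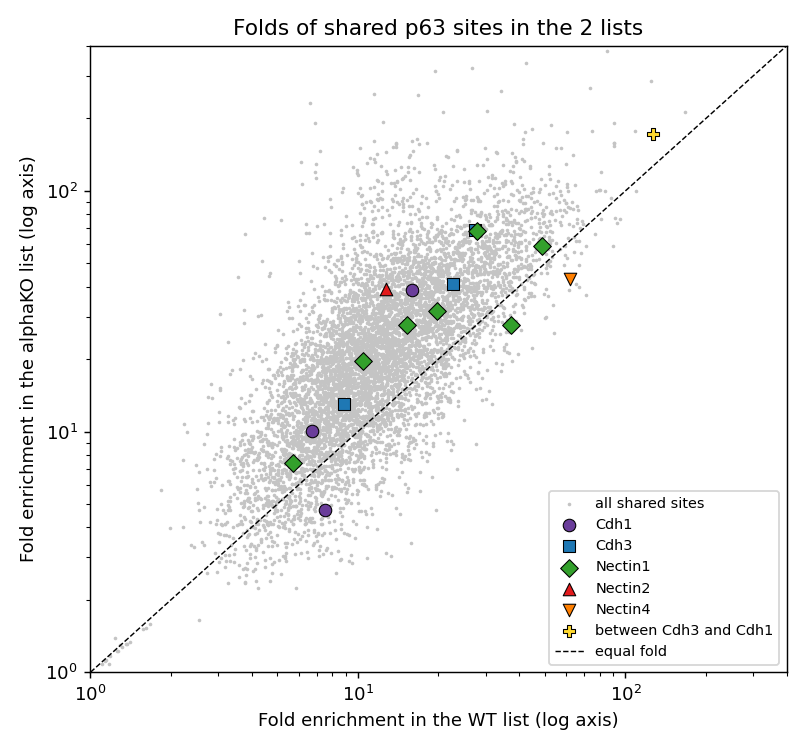
Fold enrichment of shared sites in WT (x axis) and alphaKO (y axis), both on log axes; grey points are all 7066 shared sites, coloured markers the 16 sites of the 6 genes, and the dashed line marks equal folds. Most coloured markers lie above the line with the bulk of the grey points, and 1 site each of Cdh1, Nectin1 and Nectin4 lies below it.

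Shared peaks of these genes were mostly stronger than the others, although the ranges met. They ran from 5.71 to 127 in WT and from 4.72 to 173 in alphaKO. Their median fold was 17.8 in WT and 35.2 in alphaKO, against 5.44 for the 13 WT peaks and 11.9 for the 10 alphaKO peaks without a partner. The WT peaks without a partner ranged from 3.33 to 11.2, the highest of them in Nectin4, and the alphaKO ones from 5.34 to 27.4, the highest in Cdh3. In the whole lists the medians were 11.5 and 21.0 for shared and 4.79 and 12.8 for unshared peaks.

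None of the 16 shared sites was within 1 kb of an end of any coding gene, the closest being 2.31 kb away. Of all shared peaks, 11.4% (WT) and 11.3% (alphaKO) were that close, so a count of 0 among 16 is near the share of the lists. Of the WT peaks without a partner, 3 of 13 were that close, those at the ends of Cdh1, Nectin4 and Cblc, against 30.2% in the whole list. Of the alphaKO peaks without a partner, 2 of 10 were, those at the ends of Cdh3 and Nectin3, against 5.46%. The ends are those of the annotated genes. The WT Nectin3 peak, 1.29 kb from such an end, is therefore not counted, although it covered 214 of 250 bases of the Nectin3 window. With so few peaks these counts describe the 6 genes and were not tested.

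Ordered by the highest fold in WT, the genes were Cdh3 and Cdh1 with their common peak (127), Nectin4 (62.2), Nectin1 (48.6), Nectin2 (12.7) and Nectin3 (3.65). In alphaKO the order was Cdh3 and Cdh1 (173), Nectin1 (67.8), Nectin4 (43.1), Nectin2 (39.2) and Nectin3 (11.1). Nectin1 and Nectin4 changed places by fold only. The largest pileup of Nectin1 exceeded that of Nectin4 in WT (546 and 449) and in alphaKO (661 and 251). Without a second library there is no spread to say which neighbours in the order by fold differ. Nectin4 exceeded 99.3% of coding genes in WT and 87.0% in alphaKO, whereas Nectin2 exceeded 78.5% and 84.9%.

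**Figure D4:**
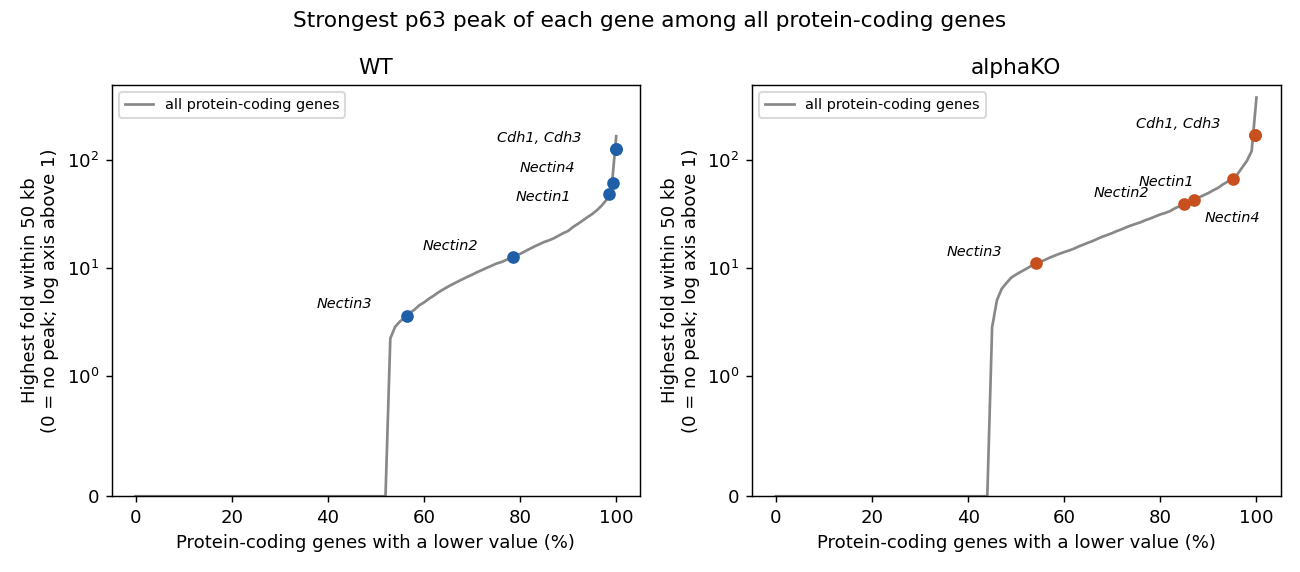
Highest fold of a p63 peak within 50 kb of each gene (y axis, 0 for no peak, log scale above 1) against the percentage of protein-coding genes with a lower value (x axis), for WT (left) and alphaKO (right); the grey line is all protein-coding genes and the points are the 6 genes. Cdh1 and Cdh3 share the point at the top, Nectin3 sits lowest in both, and Nectin4 stands above Nectin1 in WT and below it in alphaKO. This swap is in fold, and the largest pileup of Nectin1 exceeded that of Nectin4 in both lists.

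The coding gene closest to each member was found over 4 values, log2 of the highest fold and log2 of 1 plus the number of summits in each of the 2 libraries. For Cdh1 it was Dusp7 (8 WT and 5 alphaKO summits, highest folds 167 and 213), and for Cdh3 it was Jag2 (7 and 8, 90.3 and 154). The highest folds used for Cdh1 are those of the peak in common with Cdh3, which lies 39.3 kb from Cdh1 and 7.15 kb from Cdh3. Grhl2 was closest to Nectin1 (7 and 8, 49.3 and 73.4), Asph to Nectin2 (2 and 2, 13.03 and 39.1), Rc3h2 to Nectin3 (1 and 1, 3.66 and 11.3) and Bahcc1 to Nectin4 (5 and 2, 50.7 and 50.3). This is likeness in peak number and strength, not in peak position.

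Genes of the cytoplasmic plaque of adherens junctions had peaks nearly without exception. Of 20, all had a WT summit within 50 kb and 19 an alphaKO summit, against 47.1% and 55.1% of all coding genes, with medians of 2 and 3 summits. These genes are long, with a median of 100.7 kb against 17.2 kb for all coding genes, and the part of gene length in this count was not tested. The highest WT folds belonged to Ajuba, a LIM protein of the junction (90.6 in WT, 158 in alphaKO), Ctnnb1, which encodes beta-catenin (77.5 and 99.6), Actn4, an actin cross-linker (47.7 and 63.3), and Ctnna2, an alpha-catenin (39.0 and 51.99). Ssx2ip, whose product binds afadin, had a WT peak alone (7.61).

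Of 16 other classical cadherin genes, 3 had a WT summit (18.8%, against 47.1% of all coding genes) and 7 an alphaKO summit (43.8%, against 55.1%). Their median length was 158 kb. Those in both lists were Cdh12 (15.5 and 40.6), Cdh4, which encodes R-cadherin (9.41 and 40.1), and Cdh15, which encodes M-cadherin of muscle (2.61 and 6.53). Cdh20 (20.85), Cdh8 (18.9), Cdh11 (15.7) and Cdh9 (10.5) had alphaKO peaks alone. Cdh2, which encodes N-cadherin, and Cdh5, the cadherin of endothelium, had no peak in either list.

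Of 8 nectin-like genes and receptors of nectins, 4 had a summit in both lists and 4 in neither, near the 41.0% of all coding genes with a summit of each list. The 4 with peaks were Cd96, a receptor on lymphocytes (23.2 and 78.8), Cadm4 (18.6 and 28.0), Cadm1 (14.1 and 52.3), both nectin-like adhesion genes, and Pvr, the poliovirus receptor homologue (6.03 and 7.92). A peak within 50 kb may lie nearer to another gene, as at Nectin2, so these counts describe windows.

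All 5 keratinocyte marker genes had a summit within 50 kb in both lists. The lists of genes were chosen with earlier results of these data known, so this count is no independent check of the tissue. Summits were present at 2 and 2 of 5 melanocyte, 1 and 3 of 5 dermal fibroblast and 2 and 3 of 5 immune marker genes in WT and alphaKO. The dermal fibroblast genes Lum and Dcn had the same highest alphaKO fold, 92.6, and no WT summit. These counts of other cell types stand beside 47.1% (WT) and 55.1% (alphaKO) of all coding genes and say little about the tissue. A p63 peak is not expression, so this bears on cell content only indirectly, and the part of other cell types in the peaks was not tested.

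The limit of 50 kb left some peaks just outside. For Nectin4 the first excluded summits lay 50.2 kb away in both lists (folds 11.6 and 18.1), while the last included lay at 40.7 kb in WT (3.33) and 37.0 kb in alphaKO (8.10). For Nectin1 the first excluded lay at 50.97 kb in WT and 50.99 kb in alphaKO (7.12 and 8.94), and the last included at 43.9 kb in WT (15.2) and 43.8 kb in alphaKO (27.7). At Nectin3 the next peaks beyond the gene were 312 kb (WT) and 230 kb (alphaKO) away.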

How the data were processed

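Peak lists of 2 ChIP samples were analysed, 1 per genotype. Per the labels' protocols, formaldehyde (1%, 10 min) was the cross-linker and fragments measured about 300 bp. The submitters' processing notes name the build mm10, the aligner Bowtie2 and the peak caller MACS2 (2.1.1.20160309). For caller options, controls and duplicates, details were not given in the sources used here. Each peak carries, per the file headers, its position, its summit pileup (a coverage signal), its fold enrichment (a ratio), and −log10 of its p-value and q-value, all computed by the authors' peak caller. Each list came from a single library. Replication and read totals were absent, so precision is given as exact (Clopper-Pearson) 95% intervals of shares, which cover counting error only. Peaks are not replicates.

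Gene positions came from the RefSeq table of GRCm38.p6, where all 6 genes matched. It holds no exons, so exonic or intronic placement was not analysed here, and strand was known for genes with a promoter window. Local background was recovered as pileup plus 1, divided by fold, minus 1. Named were the 6 genes, neighbours of their peaks, up to 4 genes per list with peaks in both libraries and up to 3 in 1 (by fold; Cdh9, and Cdh2 and Cdh5 without peaks, were added after their values were seen), and the most alike gene. The members and lists were chosen with earlier results of these data known. The code was tested on simulated data. Software was Python 3.11.15 with pandas 2.3.3, NumPy 2.4.6, matplotlib 3.10.9 and SciPy 1.17.1. Alternatives were flanks of 10 and 100 kb, −log10 q of at least 10, equal list lengths by fold, 50% overlap of both peaks, and summits within 100 bp.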

Additional observations from a re-analysis of the deposited data

How the results depend on the processing

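Of 28 comparisons of the counts and shares over all 6 genes with an alternative, 27 stayed within 1.5 times of the count or within the interval of the share. The intervals of the shares are wide (35.7 to 73.6 in WT, 40.6 to 79.8 in alphaKO) and the alternatives draw on the same 2 lists. Staying within these limits is therefore a weak criterion. The exception was the number of WT peaks with a flank of 100 kb, 46 in place of 29, which follows from the wider windows. With a flank of 10 kb, 5 of the 6 genes had a peak in WT and 5 in alphaKO, since Nectin2 had none in either list. The share of all coding genes with a peak was not computed for this flank, so these counts have no background. With the alphaKO list reduced by fold to the length of the WT list, Cdh1 held 3 alphaKO peaks, 2 of them shared, and the shares with a partner over the 6 genes were 44.8% in WT and 65.0% in alphaKO. With −log10 q at 10 or above, these shares were 61.5% and 61.5%. Shares of the whole lists were not computed under these 2 settings. The member shares therefore have no background here and cannot be set against those of the unfiltered lists. For the counts of single genes, 100 comparisons stayed within 1.5 times and 20 moved further, 9 with 100 kb, 7 with 10 kb and 4 with equal lengths. No paired analysis was possible because each genotype had 1 ChIP library and no result comes from a test. Depth limits what is absent: a site missing from a list may lie under its threshold.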
